A study of Mus musculus with 15 samples.

Results

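The CIDE genes Cidea, Cideb and Cidec encode the proteins of the CIDE family, which sit on lipid droplets and on the endoplasmic reticulum. They were chosen by gene symbol: each of the 3 genes has 1 probe set that carries its symbol alone (10456392 for Cidea, 10420165 for Cideb and 10546929 for Cidec), out of 18820 genes measured. They were followed across primary hepatocytes of male C57BL/6J mice that overexpressed one isoform of the bile acid receptor FXR. The 4 isoform groups were FXRα1, FXRα2, FXRα3 and FXRα4, each transduced with an adenovirus that carries that human receptor isoform and, behind a separate CMV promoter, GFP, and the control group, GFP, received an adenovirus with GFP alone. Each group had 3 arrays, and the design sets each isoform against GFP to find the genes it governs. FXRα1 and FXRα3 carry a short insert next to the DNA-binding domain that FXRα2 and FXRα4 lack, and the N-terminus is longer in FXRα3 and FXRα4 than in the other pair. All 5 groups shared the rest of the protocol: hepatocytes isolated with collagenase and a Percoll gradient, transduction overnight in medium with dexamethasone and insulin, then culture without either, and RNA taken 36 h after transduction. The labels name no added FXR ligand. The receptor is human, is made in excess by a virus, and acts in cells that also have their own mouse FXR, which limits the groups as models of the isoforms in liver. The labels do not say that the arrays of a group came from separate animals or cultures, so a p-value here covers the spread between these samples alone, and that spread may be technical.

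CIDE proteins share an N-terminal domain with the DNA fragmentation factors, after which they were named, but their known work is in lipid storage and export. CIDEA and CIDEC (FSP27 in mouse) gather where lipid droplets touch and let triglyceride pass from the smaller droplet into the larger one, and both are best known from fat tissue and from the fatty liver, while the healthy liver has little of them. CIDEB is the member that hepatocytes make at all times, and it helps to load triglyceride onto nascent VLDL particles before they are secreted.

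Cidec, the member with the largest differences here, has 2 annotated start sites, and the array has a single Cidec probe set for both. The promoters of Cidec and of Cideb are printed because a nuclear receptor was varied, and they were searched on both strands for the hexamer that nuclear receptors bind, AGGTCA, and for 3 arrangements of a pair of hexamers. An inverted repeat with 1 base between is the classical FXR/RXR arrangement, an everted repeat with 2 bases between is another one known for FXR, and a direct repeat with 1 base between is that of the PPARs. Sequences are from RefSeq (GRCm38.p6, minus strand, written 5′ to 3′ on the gene's strand, 250 bases before to 50 after the start), and capitals mark the only pair found with at most 2 mismatches.
Cidec chr6:113434715-113435014 (-): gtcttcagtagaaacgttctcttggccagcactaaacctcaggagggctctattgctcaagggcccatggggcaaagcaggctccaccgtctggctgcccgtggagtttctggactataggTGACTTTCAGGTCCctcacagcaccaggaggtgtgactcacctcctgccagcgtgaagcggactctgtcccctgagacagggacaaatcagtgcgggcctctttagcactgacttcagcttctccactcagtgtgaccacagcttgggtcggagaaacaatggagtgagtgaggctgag
Cidec chr6:113435711-113436010 (-): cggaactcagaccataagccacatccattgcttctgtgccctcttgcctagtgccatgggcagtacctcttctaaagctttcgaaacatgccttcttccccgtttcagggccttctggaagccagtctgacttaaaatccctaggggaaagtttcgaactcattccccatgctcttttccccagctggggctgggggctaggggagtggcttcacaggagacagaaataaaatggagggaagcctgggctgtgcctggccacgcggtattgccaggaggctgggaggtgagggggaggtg
Cideb chr14:55758375-55758674 (-): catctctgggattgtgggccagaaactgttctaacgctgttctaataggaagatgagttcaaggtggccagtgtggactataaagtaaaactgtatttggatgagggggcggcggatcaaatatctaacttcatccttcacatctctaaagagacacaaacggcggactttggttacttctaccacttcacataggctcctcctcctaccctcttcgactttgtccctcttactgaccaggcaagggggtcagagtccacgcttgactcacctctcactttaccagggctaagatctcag
The capitals in the first Cidec promoter are an everted repeat with 2 mismatches, on the gene strand from -129 to -116 relative to the start site. Such a match was present in 1.47% of the 32851 promoters of the table, an inverted repeat with at most 2 mismatches in 1.14% and a direct repeat in 3.86%. The exact hexamer was in 16.3% of all promoters and in none of these 3. The 3 arrangements are built from the same hexamer, so their matches can overlap. A match of letters is a description and not a site of binding.

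Array values ran from 1.93 to 13.8 on a log2 scale, the medians of the 15 arrays lay between 4.92 and 5.01, and their number limits the precision. Pearson r over all probe sets was 0.992 to 0.997 within groups and 0.985 to 0.996 between groups, and probe sets are not independent of each other. All 9 measured hepatocyte markers, albumin among them, lay above the median gene, although an array value depends on the probe as well as on the RNA. Abcb11, the bile salt export pump and a classical FXR target, rose with all 4 isoforms, on the log2 scale by 3.01 (FXRα1), 3.36 (FXRα2), 0.49 (FXRα3) and 1.87 (FXRα4), in limma. The FXRα3 call of Abcb11 was lost without FXRα3 replicate 3 (0.35, adjusted p = 0.0869) or without GFP replicate 2 (0.43, adjusted p = 0.0582). Nr0b2, another classical FXR target, did not follow Abcb11. It rose by 0.40 with FXRα2, was at -0.02 with FXRα1, which did not pass, and fell by 0.46 with FXRα3. The mean of Nr0b2 was 4.27 with FXRα4 (arrays 4.45, 4.20 and 4.16), against 4.65 with GFP (arrays 4.75, 4.60 and 4.61). All group means of Nr0b2 lay below the median gene level of 5.72, and Nr0b2 is not shown to lie above the array's background. All 4 comparisons with GFP use the same 3 GFP arrays.

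**Figure D1:**
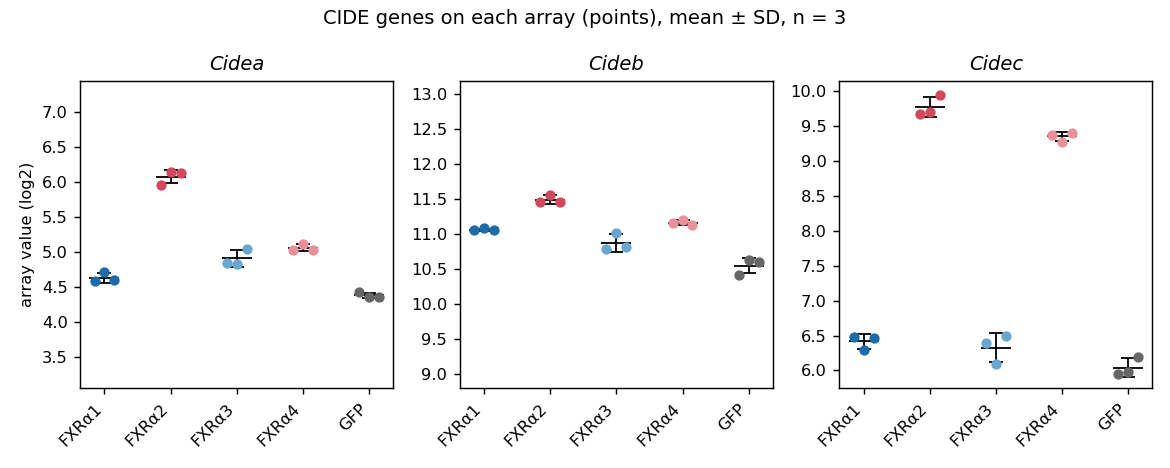
Array values (log2) of Cidea, Cideb and Cidec on each of the 15 arrays. Points are arrays, horizontal lines are means and bars are SD (n = 3), and each panel spans the same number of log2 units around its own centre. The FXRα2 and FXRα4 arrays of Cidec lie at 9.27 or above and all its other arrays at 6.50 or below.

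Cidec, the fusion protein of large droplets, was split in 2 levels by the isoforms. It stood at 6.48, 6.30 and 6.47 in FXRα1 arrays, at 9.68, 9.71 and 9.94 in FXRα2 arrays, at 6.39, 6.10 and 6.50 in FXRα3 arrays and at 9.38, 9.27 and 9.40 in FXRα4 arrays, against 5.95, 5.98 and 6.20 in GFP arrays. Every array with an isoform that lacks the insert lay far above every other array, and the FXRα3 arrays overlapped the GFP arrays. The mean was 9.77 ± 0.14 with FXRα2 and 9.35 ± 0.07 with FXRα4, against 6.04 ± 0.13 with GFP (SD, n = 3). That is 13.3-fold higher with FXRα2 (95% interval 11.5 to 15.3, limma adjusted p = 2.28e-17) and 9.92-fold higher with FXRα4 (8.60 to 11.4, adjusted p = 3.32e-16). In order of size, Cidec held place 8 among the rises of 18820 genes with FXRα2 and place 3 with FXRα4. With FXRα1 it was 1.30-fold higher than with GFP (1.12 to 1.49, limma adjusted p = 0.0124), a call that was lost without FXRα1 replicate 1 (adjusted p = 0.0586), GFP replicate 1 (0.0683) or GFP replicate 2 (0.0601). With FXRα3 the difference from GFP was 1.22-fold (1.06 to 1.41) and did not pass (limma adjusted p = 0.0573), but it passed with the replicate number as a block (adjusted p = 0.00559) and without FXRα3 replicate 2, its lowest array (0.00781).

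Cidea, the member known from brown fat and from steatotic liver, was highest with FXRα2. Its values were 4.58, 4.71 and 4.60 in FXRα1 arrays, 5.97, 6.14 and 6.14 in FXRα2 arrays, 4.85, 4.83 and 5.05 in FXRα3 arrays and 5.03, 5.12 and 5.03 in FXRα4 arrays, against 4.42, 4.36 and 4.36 in GFP arrays. The FXRα2 arrays stood clear of all others, the FXRα3 and FXRα4 arrays overlapped each other, and no isoform group overlapped GFP. The mean was 6.08 ± 0.10 with FXRα2, against 4.38 ± 0.04 with GFP (SD, n = 3), which is 3.25-fold higher (95% interval 2.82 to 3.76, limma adjusted p = 7.03e-12). The rise was 1.44-fold with FXRα3 (1.25 to 1.67, adjusted p = 0.000588) and 1.61-fold with FXRα4 (1.39 to 1.85, adjusted p = 8.32e-06). With FXRα1 the value was 1.19 times that with GFP (1.03 to 1.37) and did not pass (limma adjusted p = 0.120). No detection calls were used here, so Cidea is not shown to lie above the array's background in GFP arrays, and its folds depend on how that background was handled. With 16 added to the linear values the FXRα2 difference of Cidea was 1.19 in place of 1.70 on the log2 scale (adjusted p = 8.42e-12).

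Cideb, the hepatocyte member that serves VLDL, rose with every isoform, with the smallest estimate for FXRα3. It measured 11.05, 11.08 and 11.06 in FXRα1 arrays, 11.45, 11.56 and 11.46 in FXRα2 arrays, 10.78, 11.02 and 10.81 in FXRα3 arrays and 11.16, 11.20 and 11.13 in FXRα4 arrays, against 10.42, 10.62 and 10.60 in GFP arrays. The highest GFP array lay below the lowest array of each isoform. Cideb was 1.43-fold higher with FXRα1 than with GFP (95% interval 1.32 to 1.55, limma adjusted p = 8.03e-07), 1.92-fold with FXRα2 (1.77 to 2.09, adjusted p = 1.07e-11), 1.25-fold with FXRα3 (1.15 to 1.36, adjusted p = 0.000263) and 1.53-fold with FXRα4 (1.41 to 1.66, adjusted p = 1.20e-08). 

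With FXRα1, 2 of the 3 CIDE genes rose (8.42% of all genes rose) and the other did not pass (12.4% of all genes changed). With FXRα2 all 3 rose and 0 fell (17.5% and 16.7% of all genes). With FXRα3, 2 rose and 0 fell (7.45% and 6.62% of all genes), and with FXRα4 all 3 rose and 0 fell (18.0% and 15.7%). In bulk RNA, fewer cells of a type and less RNA per cell cannot be told apart. Centring each array on the median of the 18820 genes, an alternative chosen after seeing the data, moved the median difference of all genes from GFP, on the log2 scale, by -0.10 for FXRα1, -0.22 for FXRα2, -0.04 for FXRα3 and -0.21 for FXRα4. Each of these medians ended farther from no difference. For FXRα2 it went from -0.05 to -0.27 and for FXRα4 from -0.03 to -0.24. The change was from 0.0035 to -0.10 for FXRα1 and from -0.003 to -0.04 for FXRα3. This centring thus did not bring the median difference of all genes to the GFP level. Under this centring all 3 members stayed above GFP with every isoform, by 3.51 for Cidec, 1.48 for Cidea and 0.72 for Cideb with FXRα2.

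The order of the mean levels differed between the members only in the places of FXRα1 and FXRα3. That pair did not pass for Cidea or Cidec. For Cideb it passed narrowly (limma adjusted p = 0.0444), a call lost under 17 of 29 alternatives, so the tests do not firmly separate these orders. Cidec and Cideb both ran from FXRα2 through FXRα4, FXRα1 and FXRα3 down to GFP. For Cidec the neighbours FXRα3 and FXRα1, and FXRα3 and GFP, did not pass the test (adjusted p = 0.725 and 0.0573, limma), although the interval of the second lay above no difference. For Cideb the neighbours FXRα4 and FXRα1 did not pass (1.07-fold, 95% interval 0.986 to 1.16, limma adjusted p = 0.225), a difference whose direction turned under centring on the median of the genes (-0.01 on the log2 scale). Cidea ran from FXRα2 through FXRα4, FXRα3 and FXRα1 down to GFP, and below FXRα2 no neighbouring pair passed the test.

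**Figure D2:**
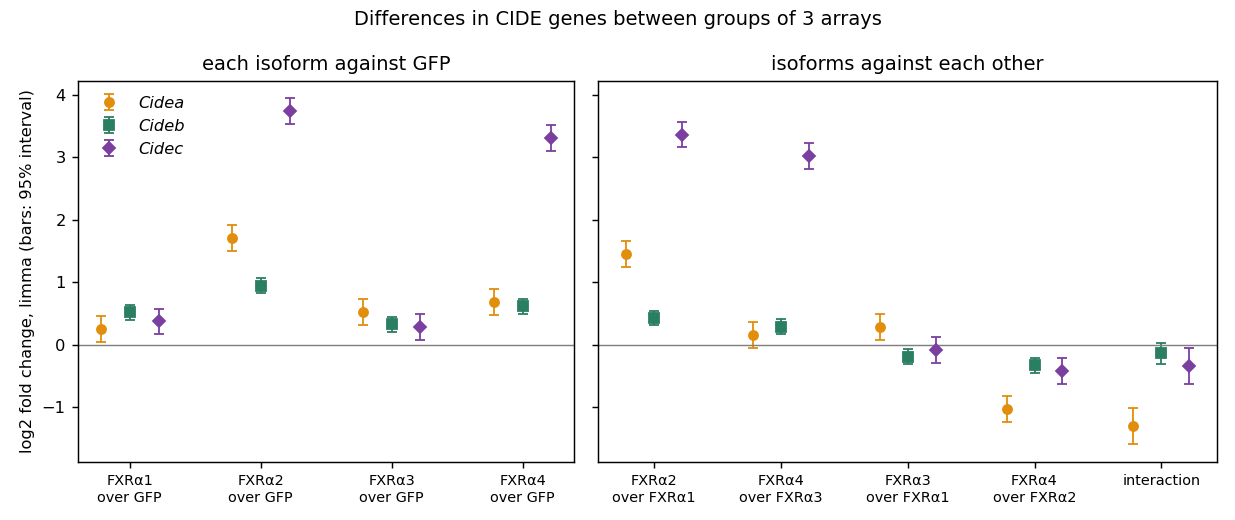
Differences (log2 fold change from limma, bars are 95% intervals) of Cidea, Cideb and Cidec between each isoform and GFP (left panel) and between isoforms (right panel, with the interaction last). Cidec has differences of 3.73 with FXRα2 and 3.31 with FXRα4, and Cidea has the only interaction whose call passed, at -1.30.

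The comparisons between isoforms that differ by the insert ask what the receptor does to these genes without it. The amount of each receptor isoform was not compared here. Nr1h4, the mouse FXR gene, averaged 7.01 with FXRα1, 7.11 with FXRα2, 6.95 with FXRα3, 7.38 with FXRα4 and 6.97 with GFP. Its interaction of insert and N-terminus was 0.33 on the log2 scale (limma adjusted p = 0.0389). Whether its probe set also reads the human receptor was not tested. On the shorter N-terminus, FXRα2 gave 10.3-fold more Cidec than FXRα1 (95% interval 8.90 to 11.8, limma adjusted p = 2.82e-16), 2.73-fold more Cidea (2.37 to 3.16, adjusted p = 1.73e-10) and 1.34-fold more Cideb (1.24 to 1.46, adjusted p = 3.24e-06). All 3 rose, where 14.1% of all genes rose and 17.1% fell. On the longer N-terminus, FXRα4 gave 8.13-fold more Cidec than FXRα3 (7.05 to 9.37, limma adjusted p = 2.33e-15) and 1.22-fold more Cideb (1.13 to 1.33, adjusted p = 0.000367), and 15.8% of all genes rose and 13.8% fell. The Cideb difference between FXRα4 and FXRα3 no longer passed under centring on the median of the genes (0.12 on the log2 scale, adjusted p = 0.194). Cidea was the exception on the longer N-terminus: FXRα4 and FXRα3 arrays overlapped, the ratio was 1.11 with an interval from 0.963 to 1.28 (limma adjusted p = 0.294), and its sign turned under centring on the median of the genes (-0.02 on the log2 scale).

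The interaction term tests that exception as the difference without the insert on the longer N-terminus minus the one on the shorter. For Cidea it was -1.30 ± 0.14 on the log2 scale (SE, limma adjusted p = 2.18e-06), for Cideb -0.14 ± 0.08 (adjusted p = 0.321) and for Cidec -0.34 ± 0.14 (adjusted p = 0.130). So 1 of the 3 members changed, where 12.9% of all genes did. With 16 added to the linear values the Cidea term was -0.94 (adjusted p = 1.04e-06). For Cidec the term passed with the replicate number as a block (adjusted p = 0.0235) and without FXRα3 replicate 2 (adjusted p = 0.0313).

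The N-terminus was compared at a fixed state of the insert. Without the insert, FXRα4 gave less of all 3 than FXRα2: 0.494 times for Cidea (95% interval 0.427 to 0.570, limma adjusted p = 9.12e-08), 0.796 times for Cideb (0.733 to 0.864, adjusted p = 0.000142) and 0.746 times for Cidec (0.647 to 0.860, adjusted p = 0.00265). Among all genes 11.7% rose and 12.0% fell in that comparison. With the insert, Cideb was 0.876 times as high with FXRα3 as with FXRα1 (0.807 to 0.951, limma adjusted p = 0.0444), and 6.86% of all genes changed. That Cideb call is close to the threshold and was lost under 8 of the alternatives that kept all arrays and on leaving out each of 9 arrays in turn. Cidea at 1.21 times (1.05 to 1.40, adjusted p = 0.107) and Cidec at 0.941 times (0.816 to 1.09, adjusted p = 0.725) did not pass, and without FXRα3 replicate 2 the direction of Cidec turned (0.03 on the log2 scale). Across both features at once, FXRα4 against FXRα1, 2 of the 3 members changed, Cidec by 7.65-fold and Cidea by 1.35-fold, where 32.0% of all genes did.

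The other genes of the lipid droplet did not follow the CIDE genes as one group. Of 28 measured genes of the droplet coat, of lipolysis and of triglyceride storage, 4 rose and 1 fell with FXRα1, 11 rose and 4 fell with FXRα2, 4 rose and 4 fell with FXRα3, and 9 rose and 9 fell with FXRα4. Of all genes, 8.42% rose with FXRα1, where 12.4% changed. The shares of all genes that rose and fell were 17.5% and 16.7% with FXRα2, 7.45% and 6.62% with FXRα3, and 18.0% and 15.7% with FXRα4. The median difference from GFP was 0.04 for the list and -0.05 for all genes with FXRα2, and -0.08 for the list and -0.03 for all genes with FXRα4. Centring on the median of the genes gave 1 that rose and 4 that fell with FXRα1, 4 and 13 with FXRα2, 2 and 4 with FXRα3, and 6 and 17 with FXRα4. The median of all genes was then -0.27 with FXRα2 and -0.24 with FXRα4, and the shares of all genes under that centring are not given here. Without FXRα4 replicate 2, 5 genes in place of 9 fell with FXRα4.

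Some genes of triglyceride breakdown were among those that rose. Pnpla2, the adipose triglyceride lipase that opens triglyceride breakdown, stood at 10.31, 10.40 and 10.49 in FXRα2 arrays and at 10.19, 10.32 and 10.35 in FXRα4 arrays, against 9.24, 9.39 and 9.47 in GFP arrays. It rose by 1.03 ± 0.07 with FXRα2 and by 0.92 ± 0.07 with FXRα4 on the log2 scale (SE, limma adjusted p = 3.59e-11 and 2.99e-10), with no overlap with GFP, and did not pass with FXRα1 (0.12) or FXRα3 (0.16). Abhd5, its coactivator CGI-58, rose by 0.24 with FXRα1, 0.92 with FXRα2 and 0.64 with FXRα4, and was at 0.11 with FXRα3, which did not pass. Its FXRα1 call was lost under centring on the median of the genes (0.14, adjusted p = 0.0750). Lipe, the hormone-sensitive lipase that takes the next step, rose by 0.99 with FXRα2 and 1.38 with FXRα4. Ldah, a droplet-associated hydrolase, fell by 0.88 with FXRα2 and by 1.04 with FXRα4. The lipases Mgll and Lipa did not pass with FXRα2 (-0.08 and -0.06). With FXRα4 their means were lower, at 5.96 and 8.87, against 6.17 and 9.14 with GFP. The highest FXRα4 arrays of Mgll and Lipa were at 6.06 and 8.98, below their lowest GFP arrays at 6.13 and 9.07. Lipa rose by 0.25 with FXRα1.

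Among the perilipins of the droplet coat Plin3 rose, and no other one did. Plin2, the perilipin that covers hepatocyte droplets, stood at 12.09, 12.09 and 12.09 in FXRα2 arrays and at 11.99, 12.05 and 12.04 in FXRα4 arrays, against 12.28, 12.29 and 12.25 in GFP arrays. It fell by 0.18 with FXRα2, 0.24 with FXRα4, 0.23 with FXRα1 and 0.66 with FXRα3 (limma adjusted p between 2.92e-12 and 8.43e-05). Plin3, an exchangeable perilipin, rose by 0.70 with FXRα2 and 0.37 with FXRα4. With FXRα3, Plin4 fell by 0.57 and Plin5 by 0.49 (limma adjusted p = 0.00268 and 0.00223). Plin1, Plin4 and Plin5 did not pass with FXRα1 or FXRα2. Their means were 4.48, 4.48 and 4.91 with FXRα4, against 4.71, 4.92 and 5.24 with GFP, all below the median gene level of 5.72. Rab18, a droplet GTPase, fell by 0.42 with FXRα2 and by 0.44 with FXRα4.

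**Figure D3:**
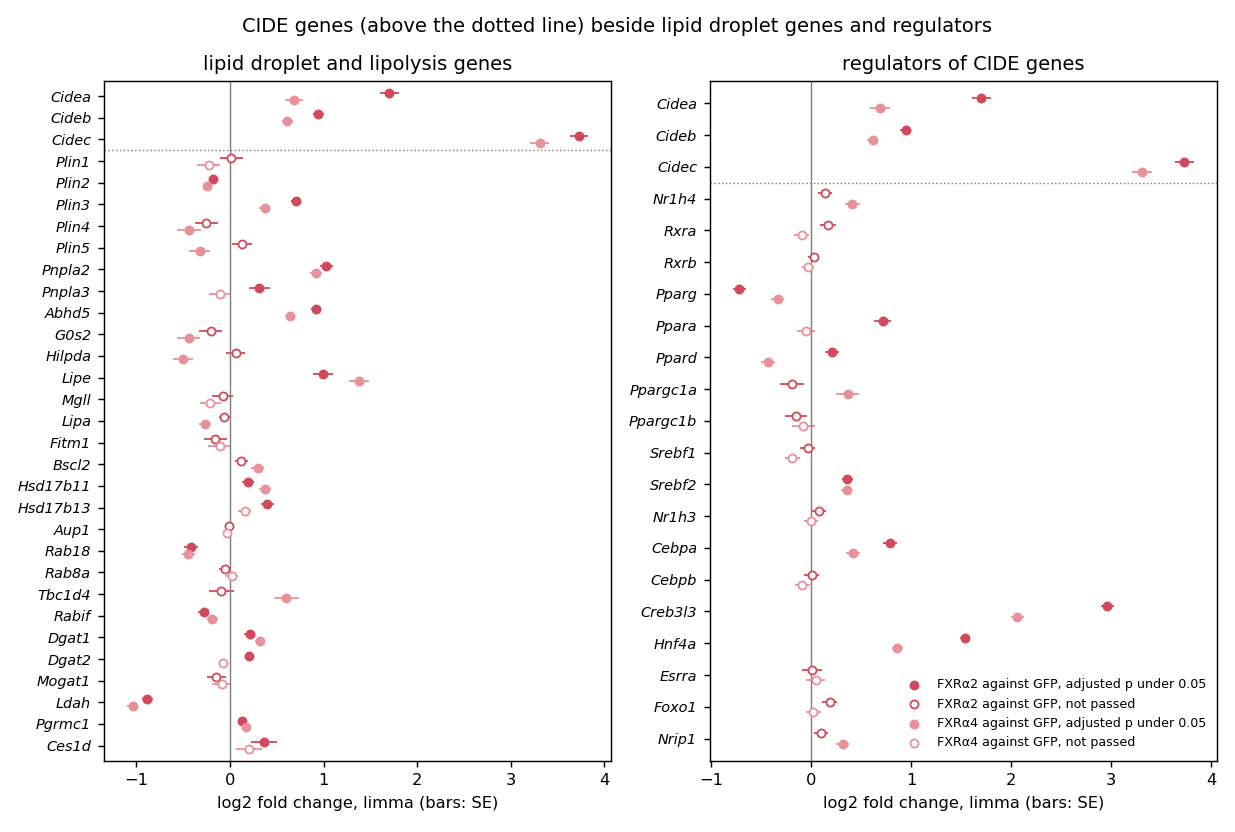
Differences (log2 fold change from limma, bars are SE) with FXRα2 and FXRα4 against GFP, for the CIDE genes above the dotted line and for measured genes of the droplet list (left) and of the regulator list (right). Filled points passed an adjusted p of 0.05. Creb3l3, at 2.96 and 2.06, is the regulator nearest to Cidec.

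CIDEB works beside the genes of VLDL assembly: apolipoprotein B, its lipid transfer protein and the coat that carries VLDL out of the endoplasmic reticulum. Of 18 measured, 13 rose and 2 fell with FXRα2, with a median of 0.22 beside -0.05 for all genes, and 10 rose and 3 fell with FXRα4, with a median of 0.18 beside -0.03. The shares of all genes that rose and fell were 17.5% and 16.7% with FXRα2, and 18.0% and 15.7% with FXRα4. With FXRα1, 5 rose and 0 fell (8.42% of all genes rose and 12.4% changed). With FXRα3, 6 rose and 1 fell (7.45% and 6.62% of all genes). The counts of the list depend on the scaling: centred on the median of the genes, 3 rose and 5 fell with FXRα2, and 2 rose and 5 fell with FXRα4. With FXRα1, 4 rose and 2 fell under that centring, and with FXRα3, 1 rose and 1 fell. The median of all genes was then -0.27 with FXRα2 and -0.24 with FXRα4. The shares of all genes under that centring are not given here, so these counts do not place the list against all genes. Sec23a and Sec24a, subunits of the COPII coat, rose by 0.46 and 0.57 with FXRα2 and by 0.58 and 0.32 with FXRα4 (limma), while their relative Sec24b fell by 0.26 and by 0.30. Centred on the median of the genes, the FXRα4 difference of Sec24a was 0.11 and did not pass (adjusted p = 0.129). Tm6sf2, which adds lipid to VLDL, rose by 0.57 with FXRα2 and was at 0.18 with FXRα4, which did not pass. Apob rose by 0.21 with FXRα2 and 0.19 with FXRα4 and Mttp, the microsomal transfer protein, by 0.17 and 0.23. Under centring on the median of the genes none of these calls passed: Apob was at -0.02 with FXRα2 and -0.02 with FXRα4, and Mttp at -0.05 with FXRα2 and 0.02 with FXRα4. The Mttp call with FXRα2 was also lost without FXRα2 replicate 1 (0.14, limma adjusted p = 0.0752), without GFP replicate 2 (0.14, adjusted p = 0.0718) and under median centring over all probe sets (0.14, adjusted p = 0.0658). With FXRα1, Mttp rose by 0.28, Sec23a by 0.30, Sec24a by 0.32 and Tm6sf2 by 0.31. That Tm6sf2 call was lost under quantile normalization (limma adjusted p = 0.0661) and under centring on the median of the genes (0.0980). With FXRα3, Apob rose by 0.15, Sec23a rose by 0.13 and Sec24b fell by 0.17. Each of these FXRα3 calls was lost without GFP replicate 2.

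Of 18 measured genes that are known to act on CIDE genes or to be partners of those regulators, 6 rose and 1 fell with FXRα2, and 7 rose and 2 fell with FXRα4. Among all genes 17.5% rose and 16.7% fell with FXRα2, and 18.0% rose and 15.7% fell with FXRα4. The median difference of the list was 0.12 with FXRα2 and 0.01 with FXRα4, beside -0.05 and -0.03 for all genes. Centred on the median of the genes, 5 rose and 8 fell with FXRα2, and 5 rose and 10 fell with FXRα4. The shares of all genes under that centring are not given here. Without the insert on the longer N-terminus, FXRα4 against FXRα3, 8 rose and 0 fell, and 6 rose and 4 fell under that centring. Before that centring, 15.8% of all genes rose and 13.8% fell in this comparison.

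Creb3l3 (CREBH), a liver transcription factor held in the endoplasmic reticulum that acts on Cidec in mouse, was split by the insert as Cidec was. It measured 7.26, 7.22 and 7.32 in FXRα1 arrays, 9.60, 9.55 and 9.63 in FXRα2 arrays, 6.62, 6.63 and 6.51 in FXRα3 arrays and 8.71, 8.62 and 8.75 in FXRα4 arrays, against 6.72, 6.53 and 6.63 in GFP arrays. The FXRα2 and FXRα4 arrays lay above all others, and only FXRα3 overlapped GFP. It rose by 2.96 ± 0.07 with FXRα2, 2.06 ± 0.07 with FXRα4 and 0.64 ± 0.07 with FXRα1 on the log2 scale (SE, limma adjusted p = 2.39e-18, 1.91e-15 and 6.07e-07), and was at -0.04 with FXRα3, which did not pass.

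The PPARs, also known as activators of Cidea and Cidec, had other patterns. Pparg, whose excess in steatotic mouse liver raises Cidec, measured 7.66, 7.65 and 7.58 in FXRα2 arrays and 8.05, 7.97 and 8.02 in FXRα4 arrays, against 8.35, 8.29 and 8.40 in GFP arrays. It fell by 0.72 with FXRα2, 0.34 with FXRα4 and 0.38 with FXRα3 (limma), and was at 0.08 with FXRα1, which did not pass. Ppara, the PPAR of fatty acid oxidation, rose by 0.71 with FXRα2, and did not pass with FXRα1 (0.13), FXRα3 (-0.15) or FXRα4 (-0.05). Hnf4a, a master regulator of hepatocyte genes, rose with all 4 isoforms, by 1.54 and 0.86 with FXRα2 and FXRα4 and by 1.09 and 0.67 with FXRα1 and FXRα3. Cebpa, another hepatocyte and adipocyte factor, rose by 0.79 with FXRα2 and 0.42 with FXRα4, fell by 0.71 with FXRα3, and was at -0.06 with FXRα1, which did not pass. Srebf2, the regulator of cholesterol synthesis, rose by 0.36 with FXRα2 and with FXRα4.

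Of 23 measured PPAR targets, 10 rose and 4 fell with FXRα2, and 4 rose and 8 fell with FXRα4. Beside them, 17.5% of all genes rose and 16.7% fell with FXRα2, and 18.0% rose and 15.7% fell with FXRα4. The median of the targets was 0.13 with FXRα2 and -0.09 with FXRα4, beside -0.05 and -0.03 for all genes. Centring on the median of the genes gave 4 that rose and 9 that fell with FXRα2, and 4 and 12 with FXRα4. The shares of all genes under that centring are not given here. Without either FXRα2 replicate 1 or FXRα2 replicate 2, 2 in place of 4 fell with FXRα2, and without FXRα4 replicate 2, 5 in place of 8 fell with FXRα4. Pdk4, which holds back glucose oxidation, rose with all 4, most with FXRα2 (2.18) and least with FXRα3 (0.83). Gpd1, the source of glycerol phosphate for triglyceride, rose by 1.04 with FXRα2 and 0.43 with FXRα1 but fell by 0.69 with FXRα4. Angptl4, an inhibitor of lipoprotein lipase, fell by 0.58 with FXRα2 and by 0.69 with FXRα4.

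Genes with the pattern most like each member were ranked by Pearson r over the 15 arrays, which share the groups and the array scaling, among 18065 genes with predicted ones passed over. For Cidec these were Epcam (r = 0.997), an epithelial adhesion molecule, Lrrc2 and Slc6a8, the creatine transporter (both 0.996), and Slc25a35 and Erbb3, a receptor of the EGF receptor family (both 0.994). Cidec had 254 genes with r above 0.95. For Cidea the nearest were Sipa1l2 (0.976), Nudt22 (0.974), Pdcd4 (0.968), Tufm, the mitochondrial elongation factor (0.967), and Dhrs11 (0.965), and 25 genes lay above 0.95. For Cideb they were Gjb2, the gap junction protein connexin 26 (0.969), Atoh8 (0.965), Cth, the enzyme that makes cysteine (0.964), Sema4g (0.964) and Vnn1, pantetheinase (0.960), and 10 genes lay above 0.95. These genes were picked for the highest r, so nearly every other gene must lie below them. Between the members, r was 0.856 for Cidea and Cideb, 0.833 for Cidea and Cidec and 0.816 for Cideb and Cidec. Among the 18065 genes compared with Cidea, Cideb held place 435 and Cidec place 591. In the ranking for Cideb, Cidec held place 562.

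**Figure D4:**
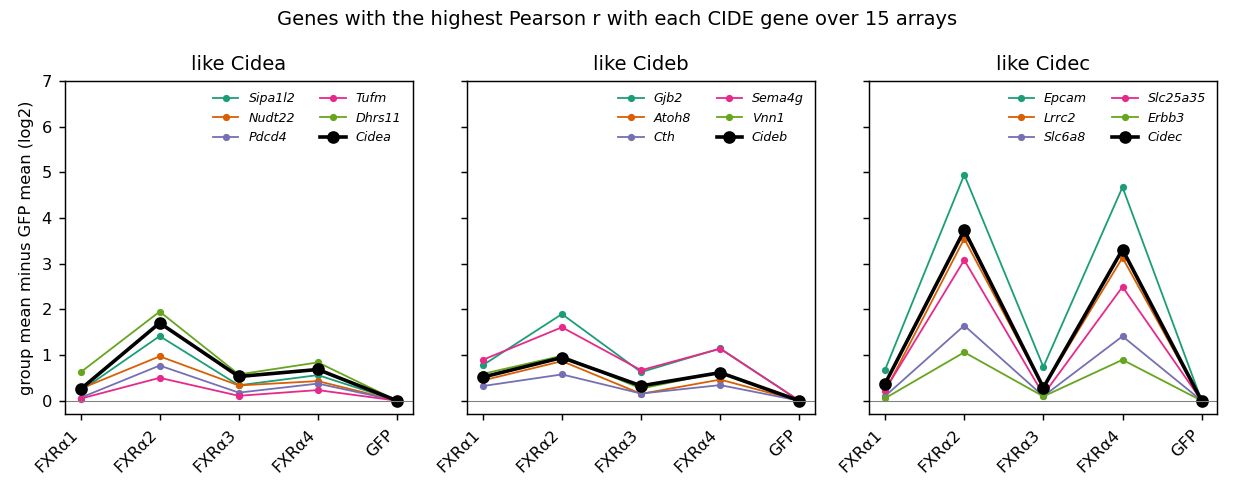
Group means minus the GFP mean (log2) for each CIDE gene (black) and the 5 genes with the highest Pearson r with it over 15 arrays. The lines join groups for reading only. Those near Cidec have their highest means with FXRα2 and FXRα4, and those near Cidea have their highest mean with FXRα2.

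Markers of other cells were read beside these results, since Cidea and Cidec are best known from fat cells. For scale, 17.5% of all genes rose and 16.7% fell with FXRα2, and 18.0% rose and 15.7% fell with FXRα4. Of 8 measured adipocyte markers, 2 rose and 2 fell with FXRα2 and likewise 2 and 2 with FXRα4, and the mean over the markers lay between 5.08 and 5.16 in FXRα2 arrays and between 5.18 and 5.27 in FXRα4 arrays, against 5.02 to 5.14 in GFP arrays. The 2 that rose were Fabp4, a fatty acid binding protein (0.60 with FXRα2 and 0.84 with FXRα4), and Lipe, and those that fell were Pparg and Adig (-0.30 and -0.33). With FXRα3, 1 adipocyte marker rose, again Fabp4 (0.57), and 1 fell, and with FXRα1, 0 rose and 0 fell. The hormones Adipoq, Lep and Retn did not pass with any isoform, and their group means lay between 3.41 and 4.13. Brown adipocyte markers averaged 4.48 to 4.66 in FXRα2 arrays and about 4.69 in FXRα4 arrays, against 4.30 to 4.43 in GFP arrays, with 2 and 3 of 6 that rose and 0 that fell. Those that rose were Cox7a1, a cytochrome oxidase subunit (0.72 with FXRα2 and 0.74 with FXRα4), Elovl3, a fatty acid elongase (0.81 and 1.11), and with FXRα4 Ppargc1a (0.36), while Ucp1, the uncoupling protein, did not pass with any isoform. Of 5 cholangiocyte markers, 2 rose and 1 fell with FXRα2 and with FXRα4, and their mean lay between 6.69 and 6.82 in FXRα2 arrays and between 6.83 and 6.97 in FXRα4 arrays, against 5.92 to 5.98 in GFP arrays. Among them Epcam rose by 4.95 with FXRα2 and 4.68 with FXRα4, while the keratin Krt19 fell by 1.82 and by 0.93, and Krt7 and Cftr did not pass. With FXRα1, 3 of the 5 cholangiocyte markers rose and 0 fell (8.42% of all genes rose and 12.4% changed). With FXRα3 the counts were likewise 3 and 0 (7.45% and 6.62% of all genes rose and fell). Of 9 hepatocyte markers, 8 rose and 0 fell with both. The part of these markers in the CIDE results was not tested.

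Some annotated genes overlap the CIDE genes. Nop9, which overlaps Cideb on the opposite strand, was at 0.10 with FXRα1 and -0.02 with FXRα2, neither of which passed, rose by 0.18 with FXRα3 and fell by 0.17 with FXRα4 (limma adjusted p = 0.0320 and 0.0196). Cideb and Nop9 thus both rose with FXRα3 and changed in opposite directions with FXRα4. Ltb4r2 also overlaps Cideb and the non-coding Gm52871 overlaps Cidec, and neither was analysed here. The non-coding B430212C06Rik, which overlaps Cidea, rose with FXRα4 by 0.28 (limma adjusted p = 0.0256), and did not pass with FXRα2 (0.21).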

How the data were processed

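RNA of 15 samples was measured on Affymetrix mouse whole-transcript arrays, 3 per group, grouped by sample title. The authors deposited 1 table of log2 values per probe set. The log base is an inference from their range. The submitters' processing notes name Affymetrix Expression Console 1.1 and PLIER without their role. How background and normalization were handled is not given in the sources used here. Of 35556 probe sets, 21218 had 1 gene symbol in the platform annotation, and the one with the highest mean was kept per gene (18820 genes, no filter).

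Means of 5 groups were fitted to all arrays with limma 3.58.1 (R 4.3.3) with a mean-variance trend. Tests were two-sided, with p-values adjusted by Benjamini-Hochberg over all genes within a comparison. "Rose", "fell" and "changed" mean an adjusted p under 0.05. The test was checked on simulated data. The members and gene lists were chosen with earlier results of these data known. Every list gene could be named, by default those with the smallest adjusted p, together with Abcb11, Nr0b2 and the 5 genes most like each member. Genes not measured by a probe set of their own were left out.

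Replicate numbers were not used as pairs, since the labels do not say what they share. Deviations from the group means were correlated between arrays of different groups. Of 30 same-numbered pairs 18 lay above 0.1 (median r 0.159), against 10 of 60 differently numbered ones (median r -0.0770). Same-numbered arrays were thus more alike, and what they share was not tested. With the replicate number as a block, the SE of Cidec with FXRα1 against GFP was 0.072 in place of 0.099. The alternatives were other variance settings, array weights, only the groups compared, 2 filters on dim genes, 3 scalings, every probe set, a fold minimum of 1.5, 16 added to linear values, leaving out each array and the replicate block. Centring on the median of the genes was added after seeing the data. Promoters were searched with Python 3.11.15, and pandas 2.3.3, numpy 2.4.6 and matplotlib 3.10.9 made tables and figures.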

Additional observations from a re-analysis of the deposited data

Results flagged for a closer look

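Cidea responded differently to the loss of the insert on the longer and on the shorter N-terminus, by a test of that difference (interaction -1.30 on the log2 scale, SE 0.14, limma adjusted p = 2.18e-06). FXRα2 lay above FXRα1 by 1.45, with no overlap between their arrays, and FXRα4 lay above FXRα3 by 0.15, with arrays that overlapped. Leaving out each array in turn gave an interaction between -1.36 and -1.23.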

How the results depend on the processing

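For the 27 tests of Cidea, Cideb and Cidec, 725 of 774 alternative values kept their direction and their side of the threshold, and 10 tests kept both in every alternative run. A fold minimum of 1.5 ended these calls, whose log2 differences stayed as reported: against GFP, Cideb 0.52 and Cidec 0.37 with FXRα1, Cidea 0.53 and Cideb 0.33 with FXRα3, and Cidea 0.68 and Cideb 0.61 with FXRα4; between isoforms, Cideb 0.43 (FXRα2 against FXRα1), 0.29 (FXRα4 against FXRα3), -0.19 (FXRα3 against FXRα1) and -0.33 (FXRα4 against FXRα2), and Cidec -0.42 (FXRα4 against FXRα2). Without the mean-variance trend Cidea passed with FXRα1 against GFP (0.25) and with FXRα3 against FXRα1 (0.28). That second difference also passed on the 75th percentile (0.34). Cideb with FXRα3 against FXRα1 did not pass without the trend (-0.19), with array weights (-0.15), with only those groups (-0.19), with every probe set (-0.19), or centred on the median (-0.18), the 75th percentile (-0.13) or the median of the genes (-0.13), and ran from -0.27 to -0.15 on leaving out arrays. Cidec with FXRα3 against GFP passed without the dimmest 25% or 50% of genes (0.29), on the 75th percentile (0.30), on the median of the genes (0.25) and with the replicate block (0.29), and ran from 0.20 to 0.40 on leaving out arrays, as Cidec with FXRα1 ran from 0.33 to 0.45. The Cidec interaction passed on the 75th percentile (-0.39), on the median of the genes (-0.39) and with the replicate block (-0.34), and ran from -0.45 to -0.25. On the median of the genes, Cideb with FXRα4 against FXRα3 did not pass (0.12), and directions turned for Cidea with FXRα4 against FXRα3 (-0.0197), Cideb with FXRα4 against FXRα1 (-0.00967), Apob with FXRα2 (-0.0152) and FXRα4 (-0.0248), and Mttp with FXRα2 (-0.0467). Cidec with FXRα3 against FXRα1 ran from -0.17 to 0.0290 and turned without FXRα3 replicate 2. The replicate block changed no other call of the 3 genes. The causes were not tested. List counts moved by over 1.5 times in 94 of 1344 recomputations. With 3 arrays a group and 1 probe set a gene, small differences and transcript forms are limited.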

Other observations

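The relatives of the CIDE genes that share their N-terminal domain, the DNA fragmentation factors of apoptosis, were measured by 1 probe set each. Dffa, the inhibitor subunit, rose by 0.41 with FXRα1 and 0.27 with FXRα2 on the log2 scale (limma adjusted p = 0.00450 and 0.0322), and did not pass with FXRα3 (0.03) or FXRα4 (-0.19). The FXRα2 call of Dffa was lost under quantile normalization, median centring and centring on the median of the genes, and on leaving out any of 5 arrays. Dffb, the nuclease subunit, did not pass with FXRα1 (-0.05), FXRα2 (-0.38), FXRα3 (-0.13) or FXRα4 (-0.23).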
